A study of Mus musculus with 2 samples.

Results

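The regions described here are 500 of the 107377 accessible regions of the data set, those that set both proliferating tanycytes and neurons apart from the 4 other tanycyte classes in cells deficient in Nfia, Nfib and Nfix. They were chosen in the Nfia/b/x-deficient library alone. For each class the cells holding a region were counted, divided by all detections of that class and scaled to 1000000. One detection means that a region was recorded as present in one cell, and the level of a region is log2 of its detections per 1000000 plus 5. The score of a region is its lower level in proliferating tanycytes and neurons minus its highest level in alpha1, alpha2, beta1 and beta2 tanycytes. The 500 highest scores make up the set, called the shared regions below. Regions are known here by number alone, without genes, positions or sequences, so the shared regions are described by their accessibility only.

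GFP-positive cells sorted from mouse mediobasal hypothalamus at postnatal day 8 were profiled by single-cell ATAC-seq in 1 deficient and 1 control library. Deficient mice were homozygous for floxed (lox/lox) alleles of Nfia, Nfib and Nfix, and also carried Rax-CreER and the reporter CAG-lsl-Sun1-GFP. Control mice carried Rax-CreER and the same reporter without the floxed alleles. Rax is expressed in tanycytes, so the sort takes cells in which Cre acted and their progeny, and the reporter cannot show that a given cell lost all 3 factors. The sources used here do not give how many animals entered a library, or when the recombinase was activated. The classes are the authors' own, and without gene names they could not be set against marker genes.

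Tanycytes are radial glia-like cells of the floor and walls of the third ventricle. Alpha tanycytes lie along the wall and beta2 tanycytes over the median eminence, and some tanycytes can divide and give rise to neurons and glia in the young animal. NFIA, NFIB and NFIX are transcription factors known in the developing brain for promoting glial differentiation. Accessible chromatin marks promoters and enhancers in use or poised for use, and many such regions open or close as a precursor cell differentiates.

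The deficient library held 13337 cells with a median of 4042 detections, and the control library held 8948 cells with a median of 4549.5. Both libraries shared 204 cell barcodes. Proliferating tanycytes were 1033 deficient and 63 control cells, neurons 2520 deficient and 882 control cells, and the 4 other tanycyte classes 9022 deficient and 7241 control cells. Each genotype has no replicate, so no test between genotypes was possible, and no p-value is given. Intervals are exact, at 95%, and cover counting error only. They treat detections as independent and leave out the variation between cells and between animals.

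By the rule, the shared regions were high in deficient proliferating tanycytes and neurons, and their deficient levels in the 6 classes named in the rule are a description. They took 7.52 of every 1000 detections in deficient proliferating tanycytes and 9.57 in deficient neurons, against 4.21 in alpha2 tanycytes, the highest of the other tanycyte classes of that library, and 2.35 in beta2 tanycytes, the lowest. The median shared region had 12.5 detections per 1000000 in proliferating tanycytes and 16.7 in neurons, against 5.79 in the 4 other tanycyte classes pooled. All 500 stood above the highest tanycyte class in proliferating tanycytes and in neurons, against 23.7% and 26.7% of all regions, and 12.9% of all regions in both, which the rule fixes. Proliferating tanycytes were the lower of the pair in 403 regions and neurons in 97, where proliferating tanycytes were below neurons in 51.2% of all regions. The nearest competitor among the other tanycytes was alpha2, which had the highest level of the 4 classes in 381 regions, against 22.4% of all regions. No shared region was detected in most cells of these classes. The most widespread was found in 38.0% of deficient proliferating tanycytes, and none was found in over 30.8% of deficient neurons. Levels were thus far from the ceiling that a record of presence sets at 1 per cell. A cell without a detection is not shown to have the region closed.

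Scores ran from 0.41 to 0.94 with a median of 0.49, in log2 units. Region 58215 had the highest score. It was found in 56 proliferating tanycytes and 171 neurons of the deficient library, or 11.1 and 17.4 detections per 1000000, against 3.12 in the 4 other tanycyte classes. Region 79481 followed with 21.9 per 1000000 in proliferating tanycytes and 30.6 in neurons, against 7.71 in the 4 other tanycyte classes. The threshold fell in a dense part of the distribution. Regions 71426 and 22119, the last inside, scored 0.4127 and 0.4127, and regions 104050 and 99984, the first outside, scored 0.4124 and 0.4120. Members close to this boundary and regions just beyond it are therefore alike in score, and 13837 regions in all scored above 0.

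The choice itself favours high values, since chance deviations help a region into the set. The rule was therefore also applied to every other deficient cell and measured in the remaining deficient cells. There 439 of the 500 regions chosen kept a score above 0, against 11.4% of all regions, with a median score of 0.29. Their share was 6.14 per 1000 in the remaining proliferating tanycytes, against 7.22 in the cells that chose them. In neurons it was 8.52 in the remaining cells, against 8.87. Of the main 500 regions, 299 were also chosen from these cells. Both groups of cells come from the same library and class labels, so only chance deviations between cells are addressed.

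**Figure D1:**
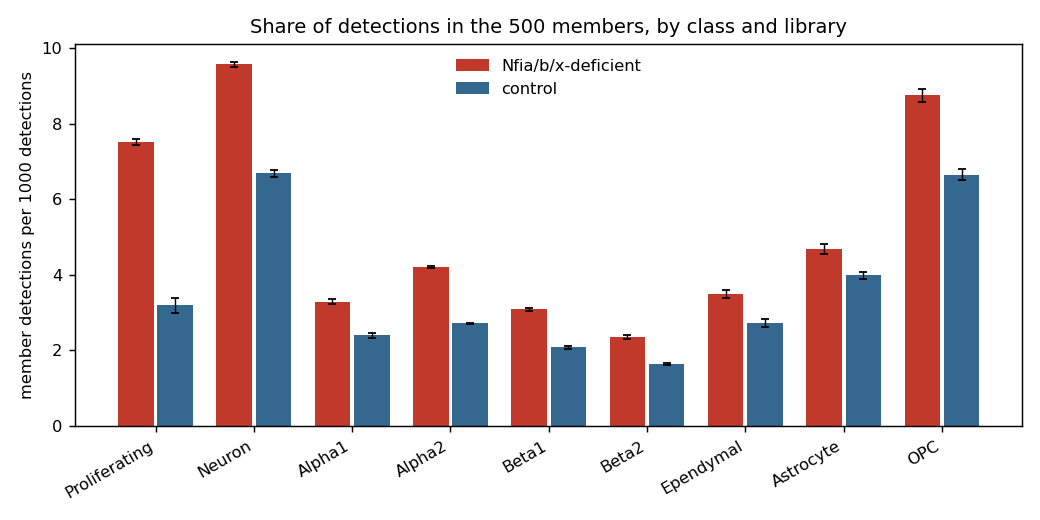
Detections in the 500 shared regions per 1000 detections (vertical axis, linear, from 0) in each of 9 cell classes, deficient library on the left of each pair and control library on the right. Bars are pooled over cells and error bars are exact 95% intervals for counting error. Deficient neurons (9.57), OPCs (8.75) and proliferating tanycytes (7.52) stand above the other classes. In the control library neurons (6.68) and OPCs (6.65) stand above the other classes. Control proliferating tanycytes (3.19) lie below astrocytes (3.98) and above the 4 other tanycyte classes, of which alpha2 (2.71) is the highest.

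The control library took no part in the choice. In its neurons the shared regions were again higher than in tanycytes. Control neurons had 6.68 per 1000 of their detections in them (interval 6.60 to 6.76), against 2.46 (2.45 to 2.48) in the 4 other control tanycyte classes, a log2 ratio of 1.44 (1.42 to 1.46). The log2 ratio in the deficient library, where the regions were chosen, was 1.37. In 437 of the 500 regions the level in control neurons was above the highest of the 4 control tanycyte classes, against 29.6% of all regions. In 128 regions it was at least 2-fold above, against 2.4% of all regions. The median difference between control neurons and the highest tanycyte class was 0.56 in log2 units over the shared regions, against -0.23 over all regions. The 63 regions that did not stand above the tanycyte classes in control neurons took 1.01 of every 1000 detections in deficient neurons, against 0.369 in control neurons, where a low level singled them out.

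Control proliferating tanycytes showed little of the pattern. The shared regions took 3.19 of every 1000 detections there (2.99 to 3.39), against 2.46 in the 4 other control tanycyte classes, a log2 ratio of 0.37 (0.28 to 0.46). It was 0.24 with median-of-ratios scaling and 0.51 in cells thinned to 2000 detections. The corresponding log2 ratio among deficient cells, which the rule fixes to be high, was 1.02. Relative to alpha2 tanycytes alone, which took 2.71 per 1000, the control proliferating cells were higher by a log2 ratio of 0.23 (0.14 to 0.32). Single regions could not be followed: the median shared region was found in 1 of the 63 control cells, and 147 regions were found in none, which allows up to 11.5 detections per 1000000 each by the exact interval. A level above all 4 control tanycyte classes was seen for 225 shared regions, against 29.7% of all regions, and both control neurons and control proliferating tanycytes stood above them in 202, against 11.3% of all regions. The pooled ratio of 0.37 was also close to that of other sets chosen in the deficient library and described below. It was 0.36 (0.22 to 0.49) for neuron regions, chosen for neurons over all tanycytes, and 0.41 (0.34 to 0.48) for proliferating regions. The label of the set thus holds for neurons in both libraries, and for proliferating tanycytes mainly in the library that defined it.

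A pair of regions had the highest control scores among the members, 1.14 and 1.12 in log2 units. Naming them by that score favours high control values in proliferating tanycytes and neurons and low ones in the other tanycytes, so their ratios between the libraries are descriptions only. Region 46764 had 26.3 detections per 1000000 in deficient proliferating tanycytes and 24.9 in control ones, where it was found in 8 of 63 cells. In neurons it had 25.9 in the deficient and 25.8 in the control library. Region 87241 had 25.7 per 1000000 in deficient and 24.9 in control proliferating tanycytes, and 40.1 in deficient and 37.2 in control neurons. In the 4 other tanycyte classes region 46764 had 15.2 deficient and 7.83 control detections per 1000000, and region 87241 had 11.9 deficient and 7.22 control. The log2 ratio of deficient over control there was 0.95 (0.76 to 1.15) for region 46764 and 0.72 (0.51 to 0.92) for region 87241. In proliferating tanycytes and neurons the intervals of the ratio included 0, and in proliferating tanycytes they were wide, at -0.95 to 1.32 for region 46764.

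**Figure D2:**
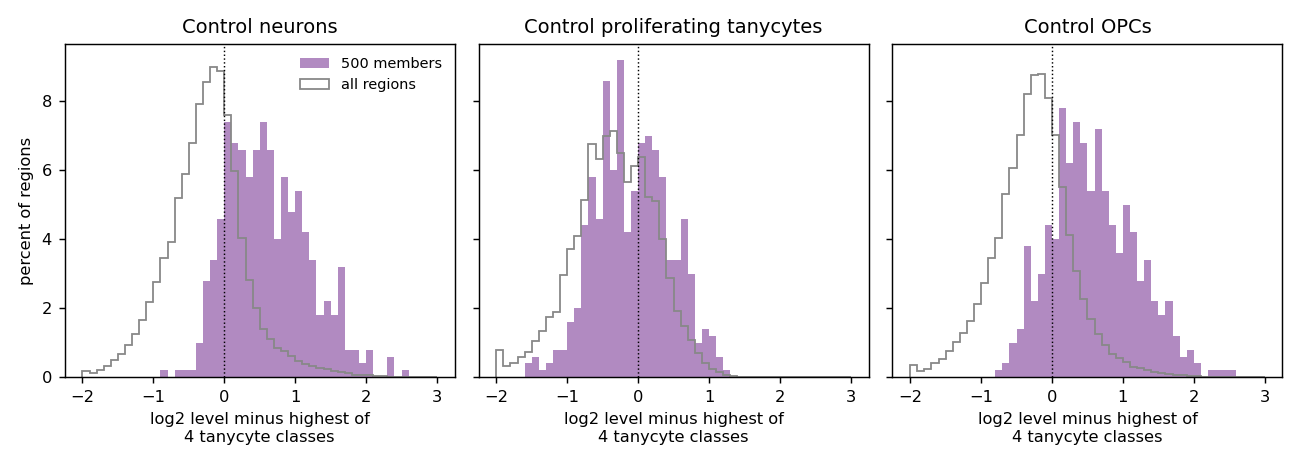
Distribution over regions of the control library's level in neurons, proliferating tanycytes and OPCs minus the highest level among the 4 other tanycyte classes (horizontal axis, log2 units; values under -2 stand in the first bin), as a percent of the 500 shared regions (filled) and of all 107377 regions (line). The shared regions lie mostly above 0 in neurons (437 of 500) and OPCs (418 of 500), and on both sides of 0 in proliferating tanycytes (225 of 500 above).

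Oligodendrocyte precursor cells (OPCs), the dividing precursors of myelinating glia, were not named in the rule. Their share of detections in the shared regions was near that of neurons in both libraries. In the control library it was well above that of proliferating tanycytes (3.19 per 1000). The regions took 8.75 of every 1000 detections in deficient OPCs (8.58 to 8.93), above deficient proliferating tanycytes at 7.52 and below deficient neurons at 9.57. In the control library OPCs had 6.65 (6.51 to 6.79) and neurons 6.68, a difference within counting error. The OPC level was above the highest of the 4 tanycyte classes for 426 regions in the deficient library, against 28.6% of all regions, and for 418 in the control library, against 28.9% of all regions. OPCs were the class with the highest level of all 9 for 162 shared regions in the deficient and 190 in the control library, against 15.6% of all regions in the deficient and 12.9% in the control library. They were above neurons for 182 shared regions in the deficient library, against 44.8% of all regions, and for 241 in the control library, against 46.4% of all regions.

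Within the set, regions differed in how far OPCs held them. In 290 regions the deficient OPC level was above the lower of proliferating tanycytes and neurons, a share near the 55.7% of all regions for which this holds. In the control library it held for 428, against 68.8% of all regions. These 290 regions took 6.73 of every 1000 detections in deficient OPCs and 5.11 in control OPCs, where the split itself favours the deficient value. Control OPCs were above the highest tanycyte class in 279 of them and in 139 of the remaining 210, against 28.9% of all regions. The other 210 regions took 2.02 in deficient and 1.54 in control OPCs, while they still took 3.69 in deficient and 2.45 in control neurons. Region 39860 had 45.9 detections per 1000000 in deficient OPCs and 28.9 in control OPCs, against 19.8 in deficient and 2.39 in control neurons.

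Astrocytes and ependymal cells, the other classes outside the rule, held the shared regions less. In astrocytes they took 4.68 per 1000 detections in the deficient and 3.98 in the control library. In ependymal cells, which bear cilia and line the ventricle, they took 3.49 in the deficient and 2.73 in the control library. Astrocytes were above the highest tanycyte class for 252 regions in the deficient library (30.5% of all regions) and for 309 in the control library (28.9% of all regions). Ependymal cells were above it for 148 regions in the deficient library, close to the 29.9% of all regions, and for 206 in the control library, against 29.2% of all regions. Among the 9 control classes the order of shares was neurons and OPCs, then astrocytes (3.98), proliferating tanycytes (3.19), ependymal cells and alpha2 tanycytes (2.73 and 2.71, within counting error of each other), alpha1 (2.39), beta1 (2.07) and beta2 tanycytes (1.63).

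Between the genotypes, the shared regions took a larger share of detections in each of the 9 classes of the deficient library. This was not particular to them. The proliferating regions chosen in that library, described below, also had a larger deficient share in all 9 classes, neurons included. The neuron regions chosen there did so in every class but neurons, where their ratio was near 0. The log2 ratio of deficient over control for the shared regions was 1.24 in proliferating tanycytes (1.15 to 1.33), 0.52 in neurons (0.50 to 0.54), 0.64 in alpha2 (0.62 to 0.65), 0.57 in beta1 (0.54 to 0.60), 0.52 in beta2 (0.48 to 0.56) and 0.46 in alpha1 tanycytes (0.41 to 0.51). It was 0.40 in OPCs (0.35 to 0.44), 0.36 in ependymal cells (0.29 to 0.43) and 0.23 in astrocytes (0.18 to 0.29). The ratios in proliferating tanycytes and neurons are raised by the choice of regions in these deficient cells, and those in the 4 other tanycyte classes are lowered by it, since a high level there kept a region out. With regions chosen in every other deficient cell and measured in the rest, the ratio was 1.14 in proliferating tanycytes and 0.47 in neurons. The value was 0.59 in the 4 other tanycyte classes, as with all cells. Without the cells whose barcode occurs in both libraries, neurons had a ratio of 0.51, proliferating tanycytes of 1.25 and the 4 other tanycyte classes of 0.58.

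Over single regions the difference was broad, and its size depended on the value added before taking logs. The ratios below have 5 per 1000000 added, which understates changes at low levels. Among the 4 other tanycyte classes pooled, 474 of 500 shared regions were higher in the deficient library, against 60% of all regions tested, with a median log2 ratio of 0.30, against 0.041 over all regions. On this scale 1 shared region was at least 2-fold higher, against 0.0224% of all regions, and none was 2-fold lower, against 0.306% of all regions. With 1 per 1000000 added, a choice that kept 335 of the 500 members, 35 regions (7.07%) were at least 2-fold higher. With nothing added, several of the named regions were over 2-fold higher in these classes. The choice in deficient neurons favours the neuron counts that follow, so they describe the set and support no difference between genotypes. In neurons 424 of 499 regions with at least 50 detections were higher in the deficient library, against 55.1% of all regions, with a median of 0.50, against 0.039. There 76 were at least 2-fold higher, against 0.976% of all regions, and 0 were 2-fold lower, against 2.18% of all regions. With 1 per 1000000 added, 140 (30.2%) were at least 2-fold higher in neurons and 8 (1.72%) were 2-fold lower. The single tanycyte classes went the same way, with fewer regions reaching 50 detections. In alpha2 tanycytes 471 of 499 were higher, against 58.4% of all regions, and in beta1 tanycytes 275 of 305, against 55% of all regions. In beta2 tanycytes 98 of 121 were higher, against 51.1% of all regions, and in alpha1 tanycytes 61 of 84, against 49.6% of all regions. In OPCs 89 of 120 were higher, against 48.9% of all regions, and in astrocytes 26 of 51, against 45.5% of all regions. In proliferating tanycytes 325 of 500 regions reached 50 detections, mostly through the deficient cells, so their counts support nothing: 304 were higher, against 57.2% of all regions, 145 at least 2-fold higher, against 7.67% of all regions, and 0 were 2-fold lower, against 2.35% of all regions. Across the 499 regions tested in both, the ratios in neurons and in the other tanycytes went together only in part (Pearson r = 0.41, Spearman rho = 0.38). Over the 62193 regions of the whole data set that could be compared, r was 0.62. These correlations are descriptions across regions that share the libraries and their depth.

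The share fell with depth in neurons and OPCs. In beta2 tanycytes it rose between cells under 3000 and cells above 5000 detections, from 1.76 to 2.68 per 1000 deficient and from 1.31 to 1.75 control. Neurons and beta2 tanycytes were thus closer in the deepest cells. In neurons, alpha2 tanycytes and proliferating tanycytes the deficient share was the higher at each depth. In astrocytes under 3000 detections the intervals of the libraries overlapped. In neurons with fewer than 3000 detections the shared regions took 10.9 per 1000 in the deficient and 8.97 in the control library. Between 3000 and 5000 detections the shares were 10.3 deficient and 7.61 control, and above 5000 they were 8.50 deficient and 5.65 control. In alpha2 tanycytes the shares in the same bins were 3.83 deficient and 2.56 control, then 3.92 deficient and 2.54 control, then 4.39 deficient and 2.76 control. In proliferating tanycytes they were 8.20 deficient and 3.48 control, then 7.72 deficient and 3.88 control, then 7.32 deficient and 3.01 control, with 19, 12 and 32 control cells.

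**Figure D3:**
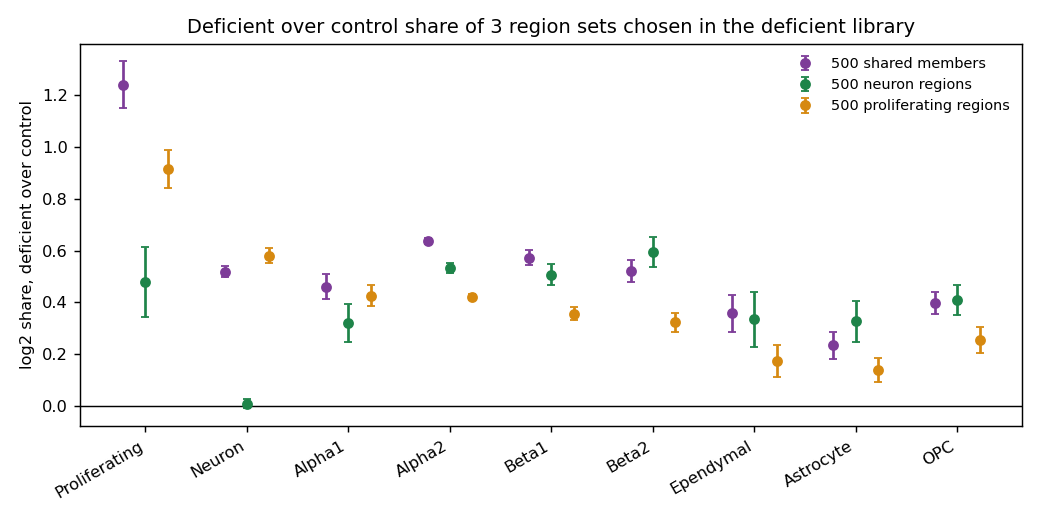
Log2 ratio of the share of detections, deficient over control (vertical axis), in each of 9 cell classes for the 500 shared regions, 500 neuron regions and 500 proliferating regions, all 3 sets chosen in the deficient library. Points are pooled over cells and bars are exact 95% intervals for counting error. In neurons the shared regions (0.52) and the proliferating regions (0.58) lie above 0, and the neuron regions (0.0093) lie at 0.

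Other sets of regions give a scale for these ratios. The same kind of rule was used to choose 500 neuron regions, high in deficient neurons over all 5 tanycyte classes including proliferating ones, and 500 proliferating regions, high in deficient proliferating tanycytes over the 4 other tanycyte classes and neurons. The neuron set held 15 of the shared regions (3% of each list) and the proliferating set 3 (0.6% of each list), where the shared regions are 0.466% of all regions. In neurons the neuron regions took 8.72 per 1000 detections in the deficient and 8.66 in the control library (log2 ratio 0.0093, -0.0091 to 0.028), although their choice in deficient neurons favours a positive ratio. The shared regions had 0.52. Their choice also favours a positive ratio in neurons, but less directly, since proliferating tanycytes were the lower of the pair in 403 of 500. The proliferating regions, which the choice disfavours in neurons, had 0.58. In the 4 other tanycyte classes the ratio was 0.59 for shared, 0.51 for neuron and 0.38 for proliferating regions. In OPCs it was 0.40 for shared, 0.41 for neuron and 0.26 for proliferating regions. In astrocytes it was 0.23 for shared, 0.33 for neuron and 0.14 for proliferating regions. In ependymal cells it was 0.36 for shared, 0.33 for neuron and 0.17 for proliferating regions. With 1 library per genotype the differences between the sets were not tested.

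A further 474 neuron regions were chosen in the control library by their level in neurons over the 4 other tanycyte classes, and shared regions were left out of them. In neurons they took 5.65 per 1000 detections in the deficient and 10.4 in the control library (log2 ratio -0.88), and here the choice favours the control library. Ratios of sets chosen in different libraries are therefore not set against each other. In deficient proliferating tanycytes they were higher than in the 4 other tanycyte classes by a log2 ratio of 0.32 (0.28 to 0.36). In deficient neurons they were higher by 2.35. Control proliferating tanycytes had a log2 ratio of 0.47 (0.32 to 0.62) over the 4 other control tanycyte classes, where the choice favours low levels. The part of cell doublets was not tested, and the ratio of the shared regions in proliferating tanycytes was 1.22 between the libraries with the deepest 5% of cells of each class left out.

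**Figure D4:**
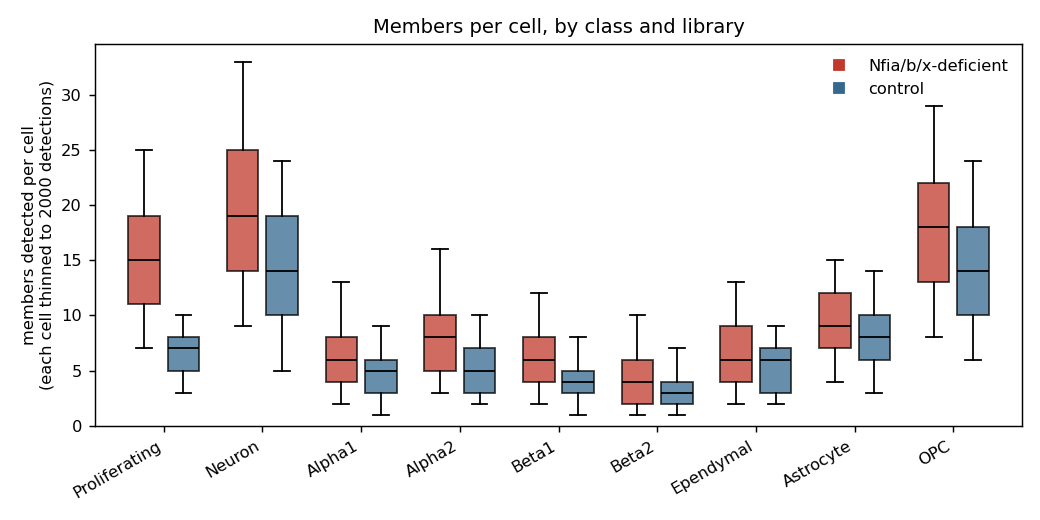
Number of the 500 shared regions detected per cell (vertical axis, linear) after each cell was thinned to 2000 detections, in each of 9 classes, deficient cells on the left of each pair and control cells on the right. Boxes span the quartiles with the median as a line, and whiskers run from the 5th to the 95th percentile of cells. The median was 15 in deficient and 7 in control proliferating tanycytes, and 19 in deficient and 14 in control neurons.

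The signal was spread over the cells of a class and was not carried by a few. After thinning to 2000 detections, which left out 65 deficient and 12 control proliferating tanycytes and 560 deficient and 280 control neurons, the median cell held 15 shared regions among deficient and 7 among control proliferating tanycytes. Without thinning, the median cell had 7.30 deficient and 3.23 control detections per 1000. In deficient proliferating tanycytes the range from the 5th to the 95th percentile was 7 to 25.65 regions, and in control ones 2.5 to 10. Of the 51 control cells 1 reached the deficient median, and 51 of 968 deficient cells were at or under the control median. Neurons had a median of 19 deficient and 14 control, and OPCs of 18 deficient and 14 control. The 10% of deficient proliferating tanycytes with the most shared regions held 17.7% of the detections, against 16.6% in control ones.

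Within the 4 other tanycyte classes, some cells, mostly deficient ones, held more shared regions than the median deficient proliferating tanycyte. The deficient cells of these classes had a median of 6, an upper quartile of 9 and a 95th percentile of 15 shared regions. In control cells these were 4, 6 and 9. Many deficient and some control cells thus lay within the 7 to 25.65 range of deficient proliferating tanycytes, whose median was 15. Above 15 lay 3.56% of deficient (293 of 8239) and 0.119% of control cells (8 of 6747) of these classes. Among alpha2 tanycytes it was 5.38% of deficient and 0.174% of control cells, and among beta2 tanycytes 0.546% of deficient cells and 0 of 864 control cells, which allows up to 0.426% by the exact interval. Above the same number lay 43.8% of deficient and 0 of 51 control proliferating tanycytes, which allows up to 6.98%, and 69.1% of deficient and 42.0% of control neurons. The variance of the number per cell was 2.22 times its mean in deficient and 1.36 times in control cells of the 4 other tanycyte classes. A value of 15 is a point in a continuous range and does not mark a cell type.

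Within a class, cells with more shared regions held more of the other sets to an extent that differed between classes. Across 4574 deficient alpha2 tanycytes the share of shared regions went with that of the neuron regions outside the set (Pearson r = 0.52) and of the proliferating regions outside the set (r = 0.44). Across 4031 control alpha2 tanycytes r was 0.37 with neuron and 0.24 with proliferating regions. Across deficient neurons r was 0.41 with neuron and 0.31 with proliferating regions, and across control neurons 0.61 with neuron and 0.061 with proliferating regions, where Spearman's rho was -0.078. With the control-chosen neuron regions r was 0.088 across deficient and 0.45 across control neurons, and 0.41 across deficient and 0.32 across control alpha2 tanycytes. These are descriptions: the shares of a cell rest on few detections, come from the same depth, and the sets were chosen in cells of these libraries.

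Single members departed from the median of the set in both directions. In neurons, region 25701 had the highest deficient over control ratio with 5 per 1000000 added, with 159 deficient and 4 control cells, or 16.2 deficient and 1.06 control detections per 1000000 (log2 ratio 3.93, 2.54 to 5.82). It was also higher in deficient cells of the 4 other tanycyte classes, at 4.34 deficient against 1.21 control detections per 1000000, and was found in 46 deficient and 0 of 63 control proliferating tanycytes. Region 39860 followed with 195 deficient and 9 control neurons (log2 ratio 3.05, 2.10 to 4.20). In the control library the neuron level minus the highest tanycyte level was -0.10 for region 25701 and 0.29 for region 39860, in log2 units.

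The lowest ratios in neurons belonged to regions 70734 and 60304. Region 70734 was found in 203 deficient and 129 control neurons, or 20.6 deficient and 34.3 control detections per 1000000 (log2 ratio -0.73, -1.06 to -0.40). For the same region the 4 other tanycyte classes had 11.1 deficient and 8.88 control detections per 1000000. Region 60304 had 11.3 deficient and 19.9 control detections per 1000000 in neurons (log2 ratio -0.82, -1.26 to -0.38) and 4.09 deficient and 2.52 control in the 4 other tanycyte classes. Both regions were thus lower in deficient neurons and higher in the other deficient tanycytes, against the direction of the set in neurons.

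Among the 4 other tanycyte classes pooled, region 29876 had the highest ratio of deficient over control with 5 per 1000000 added, at 24.9 deficient and 9.90 control detections per 1000000 (log2 ratio 1.33, 1.17 to 1.49), and it was higher in the deficient library in all 9 classes, although in ependymal cells and astrocytes the interval of the ratio included 0. In proliferating tanycytes it had 48.2 deficient and 15.6 control detections per 1000000. Region 76949 followed with 11.4 deficient and 3.36 control (log2 ratio 1.77). With nothing added, region 25701 (log2 ratio 1.84) and region 76949 were both above region 29876. The lowest were region 29008, at 7.23 deficient and 11.7 control (log2 ratio -0.70, -0.91 to -0.49), and region 87703, at 7.04 deficient and 11.2 control (log2 ratio -0.66, -0.88 to -0.45). In neurons region 29008 had 18.7 deficient and 18.6 control detections per 1000000, while region 87703 had 19.0 deficient and 30.3 control.

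**Figure D5:**
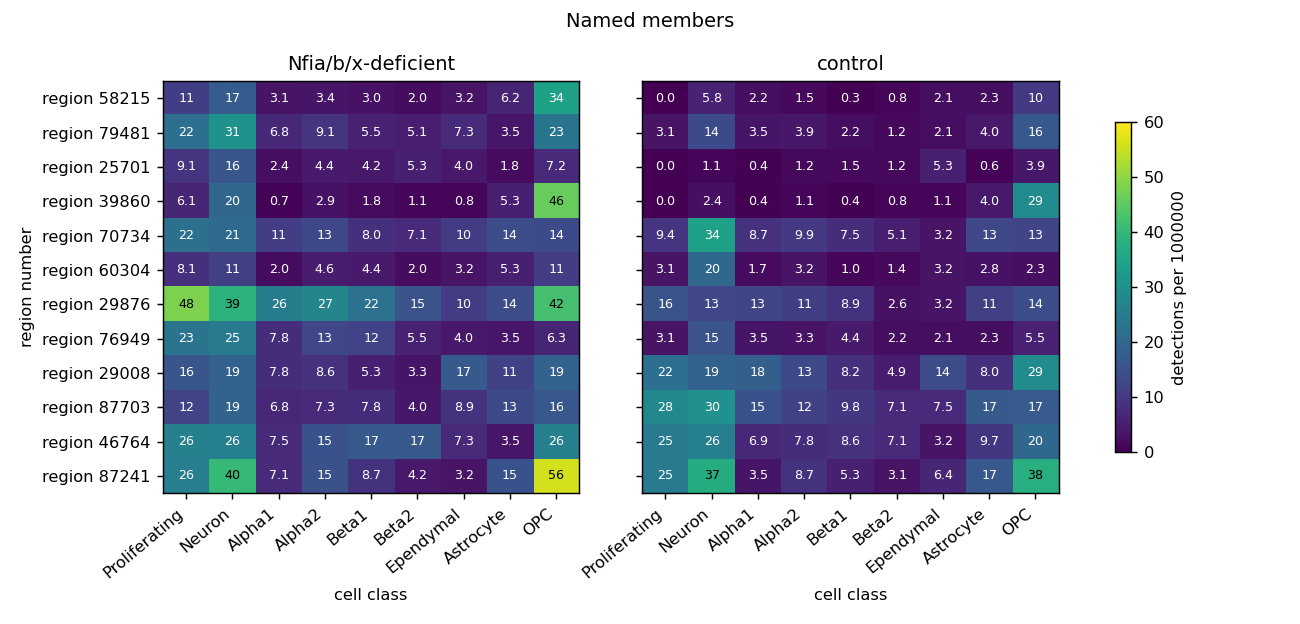
Detections per 1000000 (colour and printed value) of 12 named shared regions (rows) in 9 cell classes (columns), deficient library on the left and control library on the right. Values in the control proliferating column rest on 63 cells, where 1 cell is worth 3.12 per 1000000. Regions 46764 and 87241 are high in proliferating tanycytes and neurons of both libraries, and region 25701 is at 16.2 in deficient and 1.06 in control neurons.

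The shared regions were spread over the region numbers: in 20 equal blocks of numbers the count ran from 17 to 40, 4 members stood next to another and 41 lay within 10 numbers of the next. Whether neighbouring numbers are neighbouring positions is unknown here. A shared region was found in 174 to 5329 cells of both libraries, with a median of 714, against 496 over all regions. The same rule applied to the control library chose 500 regions of which 35 were shared with the set (7% of each list, where the shared regions are 0.466% of all regions), and 63 proliferating cells carry that choice.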

How the data were processed

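The reads were run through Cell Ranger ATAC at default settings, per the labels' protocols. The submitters' processing notes name mm10, MACS2, Seurat, Signac 0.2.5 and Cell Ranger 3.1 without saying what each did. The sources used here do not give how regions were called, cells filtered, doublets treated or classes named. The deposited matrix lists which region was present in which cell, with no count of fragments, so the authors' values are presence or absence. It carries no cell names, so the deposited annotation's order was used. Nearest class profiles, made from the cells at alternate positions, gave 75.9% of deficient and 80.8% of control cells their own class, against 34.6% of deficient and 47.2% of control cells with the annotation moved by 1 cell.

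The 500 members and the other sets were chosen with earlier results of these data known. Cells are no replicates, so detections were summed within a class and given relative to the class total. Ratios of single regions added 5 per 1000000 and needed at least 50 detections over both libraries, and ratios with intervals added nothing. Intervals are exact Clopper-Pearson or conditional binomial intervals. No test was run. Regions were named by rule: highest scores, both sides of the threshold, highest and lowest ratios, and highest control scores. The calculation was tested on simulated data. The software was matplotlib 3.10.9, pandas 2.3.3, scipy 1.17.1 and numpy 2.4.6 under Python 3.11.15. Alternatives were another pseudocount, a filter on low values, median-of-ratios scaling, thinned cells, deepest cells left out, 200 or 1000 members and a choice in every other cell. Leaving out cells whose barcode occurs in both libraries was chosen after seeing the data.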

Additional observations from a re-analysis of the deposited data

Results flagged for a closer look

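Region 70734 had a log2 ratio of deficient over control of -0.73 in neurons and 0.33 in the 4 other tanycyte classes, so the library difference ran in opposite directions in these groups. Region 60304 likewise had -0.82 in neurons and 0.70 in the 4 other tanycyte classes. Each direction rests on 1 library per genotype, and the difference between the groups was not tested. Both regions were named for the lowest ratios in neurons among the members.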

How the results depend on the processing

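No paired analysis was possible because each genotype had 1 library, and for the same reason no replicate could be left out. No log2 ratio was reversed in direction under any alternative, and the percentages have no direction to reverse. Of 88 values, 54 stayed within the interval, or within 1.5 times the percentage, of the reported ones, while 34 moved. The 54 include percentages that were 0 both as reported and under the alternative. A minimum of 50 detections in each library kept all 500 members and changed nothing, so it tested nothing and is not counted. The log2 ratio of deficient over control in neurons, 0.52 as reported, was 0.48 with a pseudocount of 1, 0.46 with median-of-ratios scaling, 0.47 in thinned cells, 0.48 without the deepest cells, 0.48 with 1000 members and 0.47 in cells not used for the choice. In proliferating tanycytes it was 1.51 with a pseudocount of 1, 1.34 with 200 members, 1.06 with 1000 and 1.14 in cells not used for the choice. In the 4 other tanycyte classes it was 0.66 with a pseudocount of 1, 0.54 with median-of-ratios scaling, 0.54 in thinned cells, 0.65 with 200 and 0.52 with 1000 members. Control neurons over the 4 other tanycyte classes, 1.44 as reported, gave 1.84 with a pseudocount of 1, 1.63 in thinned cells, 1.58 without the deepest cells, 1.64 with 200 and 1.29 with 1000 members. Control proliferating tanycytes over them, 0.37 as reported, gave 0.24 with median-of-ratios scaling, 0.51 in thinned cells and 0.47 with 200 members. With a pseudocount of 1, which kept 335 of the 500 members, 30.2% of members were 2-fold higher and 1.72% 2-fold lower in deficient neurons, and 7.07% were 2-fold higher in the 4 other tanycyte classes. Members 2-fold lower in neurons were 0.101% with 1000 members and 0.226% in cells not used for the choice. The 1 member 2-fold higher in the 4 other tanycyte classes (0.2%) became 0.469% in thinned cells and 0% with median-of-ratios scaling, without the deepest cells, with 200 members, in cells not used for the choice and without barcodes of both libraries. Thinned cells kept 260 members. The causes were not tested. The 63 control proliferating cells limit each value of that class.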
